A study of Mus musculus with 6 samples.

Results

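The miRNA family that shares the seed of miR-130 was measured with 4 guide-strand probes (mmu-miR-130a, mmu-miR-130b, mmu-miR-301a and mmu-miR-301b), chosen by probe name from the 599 probes of a NanoString mouse miRNA panel. The assay tags every miRNA with a barcoded probe and tallies single molecules with no amplification step. RNA was from fresh frozen liver of C57Bl/6 mice, 3 per genotype. The *Apcfl/fl* mice (genotype APC fl/fl in the labels) carried a hypomorphic *Apc* allele in both copies and had hepatocarcinoma (HCC) with active Wnt/β-catenin signalling, and the *Apc+/+* mice were healthy controls without tumour. Their livers are called tumour livers and control livers here. Age and sex are not given in the sources used here. Hepatocyte miR-122 had counts of 6688 or more in every liver, so the defining marker of the labelled tissue was present.

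MiRNAs pair with messenger RNAs mainly through the seed, bases 2 to 8 from the 5′ end, and miRNAs with the same seed can share targets. The seed of the family is known for targets in lipid metabolism and TGF-β signalling, among them *Pparg*. MiR-130a is known from endothelial cells, where it represses the anti-angiogenic homeobox genes *Meox2* and *Hoxa5*. MiR-130b was described in CD133+ liver tumour-initiating cells, and miR-301a is known to raise NF-κB activity by repressing *Nkrf*.

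The mature sequences (RefSeq, assembly GRCm38.p6, 3p arms, seed in capitals) show what the probes of miR-130a, miR-130b and miR-301a had to tell apart. The reference held no mature miR-301b entry, so that member is not compared here.
miR-130a: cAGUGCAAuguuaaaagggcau
miR-130b: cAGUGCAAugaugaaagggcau
miR-301a: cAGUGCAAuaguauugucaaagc
MiR-130a and miR-130b were identical at 20 of 22 positions, with the substitutions U11A and A13G counted from the 5′ end of miR-130a. MiR-130a and miR-301a shared 9 bases at the 5′ end and 12 of 22 aligned positions. MiR-130c, miR-721, miR-6341 and miR-6389, which also carry this seed in that reference, had no probe on the panel, and neither did the passenger strands of the family (0 probes). The gene of miR-130a (*Mir130a*) lies at chr2:84741115-84741178 on the minus strand and overlaps no annotated gene in this assembly. *Mir301*, the gene of miR-301a, lies within *Ska2* at chr11:87113004-87113089 on the plus strand. *Mir130b* (chr16:17124061-17124142) and *Mir301b* (chr16:17124400-17124496) lie 257 bases apart on the minus strand, both within 2610318N02Rik. The count table names no build, and the positions are those of the reference only.

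Of the 4 members, miR-130a alone lay above background in all 6 livers. Background was taken from the 33 probes for viral miRNAs, which mouse liver should not contain. The limit was their mean plus 2 SD in each liver, and it lay between 13.1 and 27.8 counts. Of the 566 mouse probes, 19.3% lay above this limit in all 6 livers, 25.8% in 1 to 5 livers and 54.9% in no liver.

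MiR-130a (MIMAT0000141) was counted 689, 735 and 860 times in the control livers and 1006, 1244 and 1937 times in the tumour livers. The lowest value relative to its limit, in *Apc+/+* liver 2, was 31.6 times that limit. No viral probe reached the level of miR-130a in any liver.
MiR-301a (MIMAT0000379) reached 7, 16 and 21 counts in control livers and 12, 19 and 40 in tumour livers. It lay above the limit in *Apc+/+* liver 3 and in tumour livers 2 and 3, thus in 1 control and 2 tumour livers. In *Apcfl/fl* liver 2, 1 viral probe was as high or higher. In *Apcfl/fl* liver 3 the count of miR-301a was 2.08 times the limit, the highest ratio for this probe. In *Apc+/+* liver 1, 19 of the 33 viral probes had counts as high or higher.
MiR-130b (MIMAT0000387) reached 14.67, 10.67 and 11.67 counts in control livers and 9.67, 1.67 and 20.67 in tumour livers. Only *Apcfl/fl* liver 3 passed the limit, at 1.08 times its value, and 1 viral probe was as high or higher there. With the limit at the mean plus 3 SD, miR-130b lay above it in 0 livers.
MiR-301b (MIMAT0004186) stood at the table's lowest value of 1 in 4 livers, with 1.33 counts in *Apc+/+* liver 1 and 4.33 in *Apcfl/fl* liver 1. It passed the limit in 0 livers. At the 3 SD limit, neither of the clustered pair miR-130b and miR-301b had a signal in any liver.

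**Figure D1:**
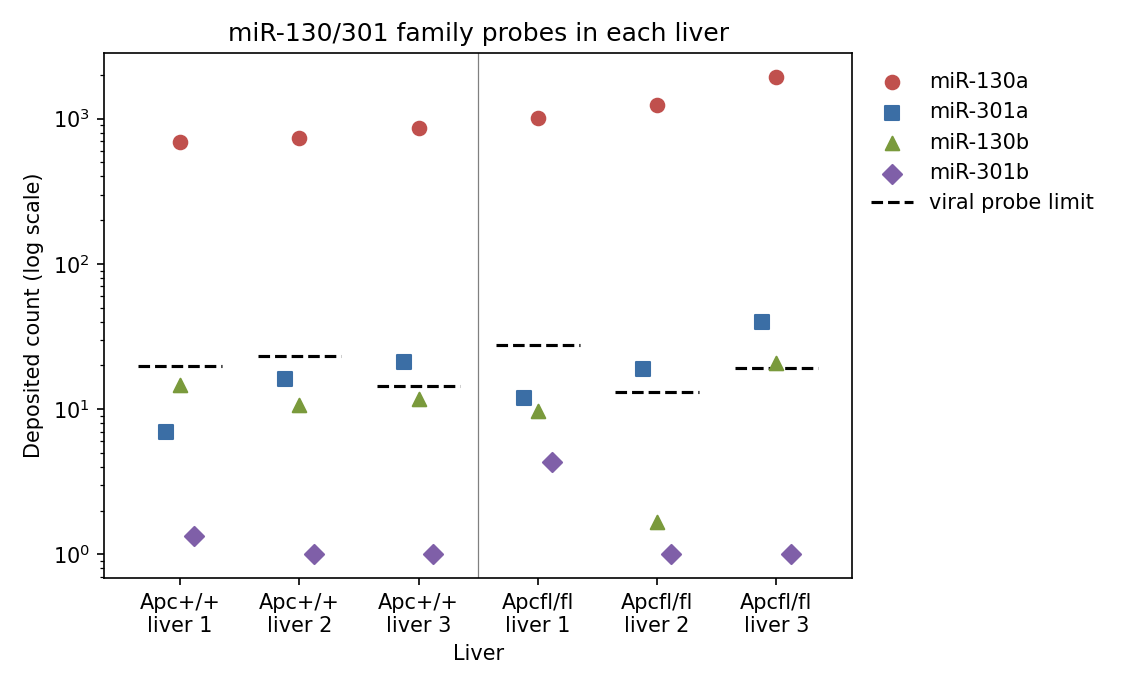
Deposited counts of the 4 family probes in each of the 6 livers (log scale, 1 point per probe and liver), with the viral probe limit of each liver as a dashed line. MiR-130a lies between 689 and 1937 counts, while the other 3 probes lie at 40 counts or less and mostly under the limit.

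The genotypes were compared to ask whether the family changed with Wnt-dependent HCC. The counts were scaled by the TMM method, which aligns the bulk of the miRNAs between libraries, and tested with edgeR's quasi-likelihood test. Tested were the 174 mouse miRNAs whose count averaged 20 or more, and of the family only miR-130a was among them. MiR-301a missed this minimum with a mean of 19.2, miR-130b had 11.5 and miR-301b 1.61.

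MiR-130a was slightly higher in *Apcfl/fl* liver, by an amount that the spread between mice could not separate from 0. Its normalized count was 869.5, 902.3 and 1056 in control livers (942.7 ± 99.7, SD, n = 3) and 904.9, 1318 and 1272 in tumour livers (1165 ± 226, SD, n = 3). *Apcfl/fl* livers 2 and 3 were above all controls, and *Apcfl/fl* liver 1 lay among them. The log2 fold change was 0.31 with a standard error of 0.21, and its 95% interval ran from -0.20 to 0.81. This is 1.24-fold, with an interval from 0.872-fold to 1.75-fold. In edgeR's test the Benjamini-Hochberg adjusted p was 0.39. The exact permutation test of the normalized log2 values gave p = 0.2 (two-sided; 3 mice against 3 cannot go below 0.1).
Among the tested miRNAs, 0% passed an adjusted p of 0.05 in either direction, and at an unadjusted p under 0.05 13.8% were higher and 10.9% lower in *Apcfl/fl* liver. These were 24 and 19 miRNAs under TMM, against 38 and 3 with the total count as library size and 41 and 4 without miR-720 in that total. DESeq2 called 29 of them at the adjusted threshold, and miR-130a was not past it there (adjusted p = 0.43). Of the 174 miRNAs, 126 (72.4%) had a larger absolute log2 fold change than miR-130a. Its spread between mice of the same genotype was small, with a pooled SD of 0.24 on the log2 scale against a median of 0.48 over the tested miRNAs.

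The size of the difference depended on the scaling. As a share of all mouse miRNA counts, miR-130a took 0.831% (95% Wilson interval 0.771% to 0.895%), 0.79% (0.735% to 0.849%) and 0.645% (0.603% to 0.689%) in the control livers. It took 1.04% (0.981% to 1.11%), 1.21% (1.14% to 1.28%) and 1.46% (1.4% to 1.53%) in the tumour livers. These intervals cover counting error only. On this measure the genotypes were apart (exact permutation test, two-sided, p = 0.1, n = 3 each), as for 21.8% of the tested miRNAs in the same direction. The deposited counts did not overlap either, as for 28.2%. With the total count as library size, edgeR's log2 fold change was 0.71 (adjusted p = 0.13), while the median over the 174 miRNAs went from 0.01 to 0.45. MiR-130a lay 0.29 above that median under TMM and 0.26 above it under the total count. This distance was 0.15 with the viral probe mean subtracted, 0.40 with the count minimum of 60, 0.82 with no filter, 0.17 without *Apc+/+* liver 2 and 0.46 without *Apcfl/fl* liver 1.
*Apc+/+* liver 3 stood apart in this respect. The probe miR-720 took 33% of its counts, against 15.7% to 25.7% in the others, and its TMM factor was 0.66, against 0.95 to 1.25. Without that liver the log2 fold change of miR-130a under TMM was 0.32. *Apcfl/fl* liver 2 had the most mouse probes above the limit (202, against 140 to 178 in the others), and without it the value was 0.26. Without *Apcfl/fl* liver 1, the liver that lay among the controls, it was 0.46 (adjusted p = 0.18). With no filter on low counts it was 0.74 (adjusted p = 0.32).

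**Figure D2:**
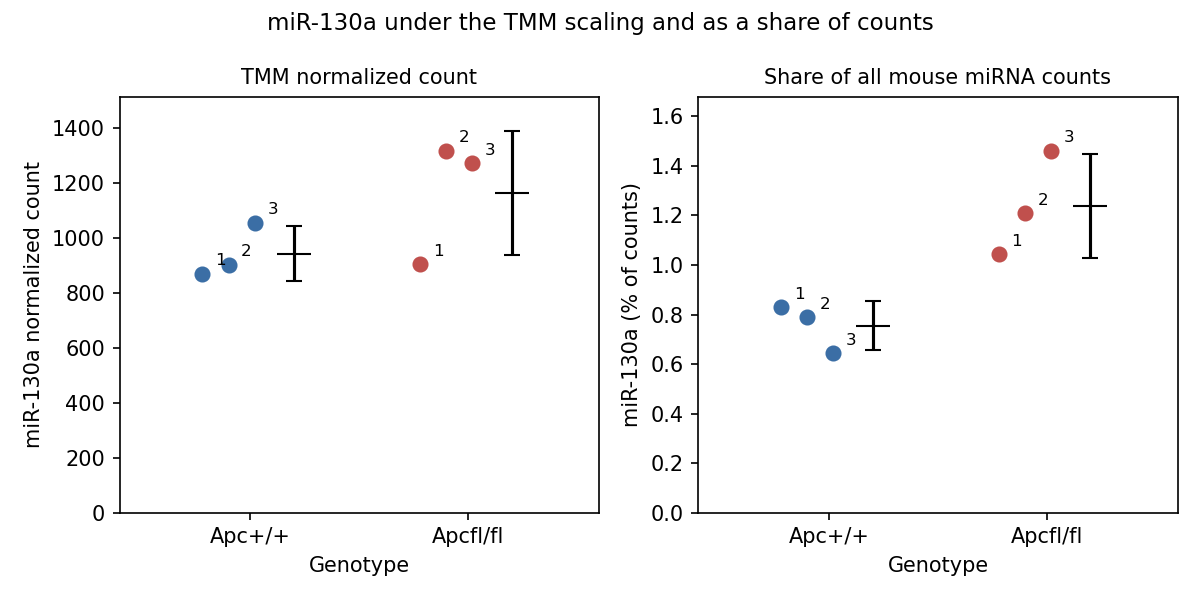
MiR-130a in each liver as a TMM normalized count (left) and as a percentage of all mouse miRNA counts (right). Points are livers with their replicate number, and bars give the mean ± SD (n = 3); *Apcfl/fl* liver 1 lies among the controls on the left and above them on the right.

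**Figure D3:**
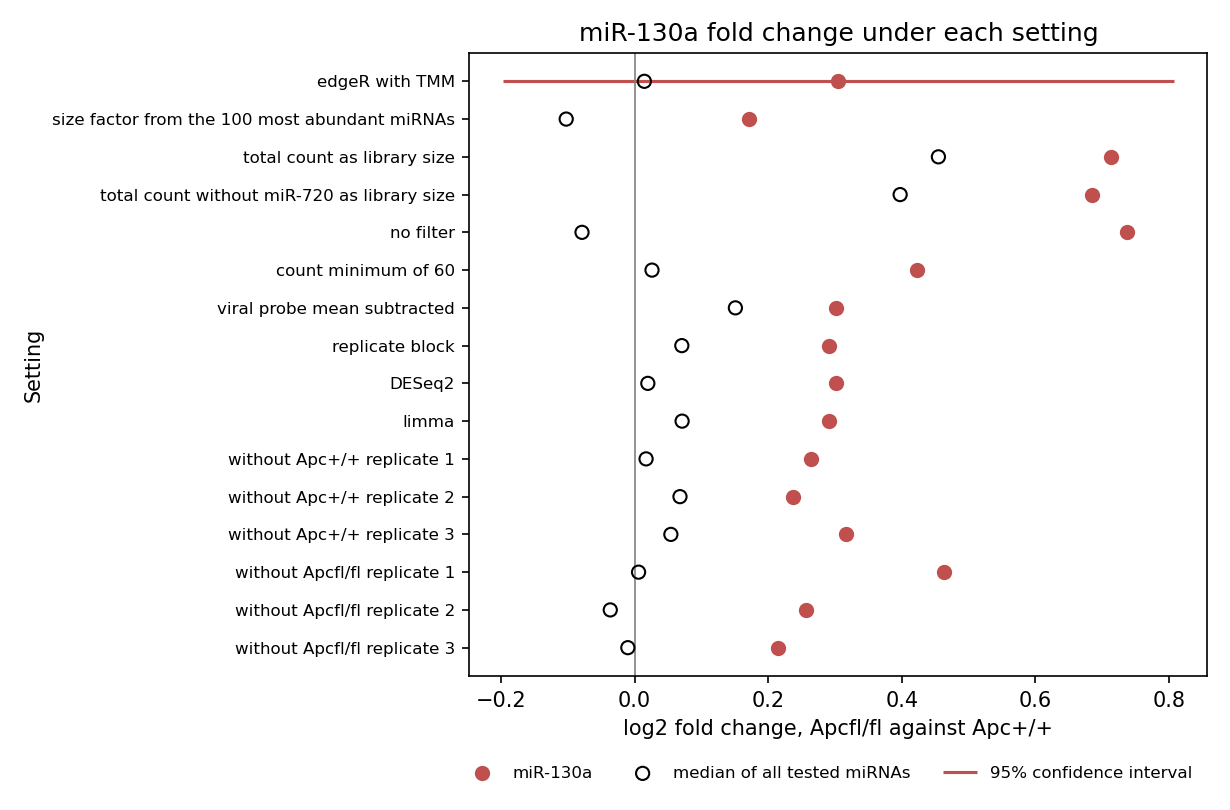
Log2 fold change of miR-130a (filled points, *Apcfl/fl* against *Apc+/+*) and median of all tested miRNAs (open points) under edgeR with TMM and each alternative, with the 95% confidence interval for the first. All 15 alternatives lie above 0, between 0.17 and 0.74, and the median moves with the scaling.

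For the 3 members under the count minimum no fold change is given. The normalized count of miR-301a was 18.1 ± 8.59 in control and 19.1 ± 7.79 in tumour livers (SD, n = 3 each; two-sided exact permutation test of log2 values, p = 0.7). That of miR-130b was 15.7 ± 2.84 and 8.30 ± 5.87 (SD, n = 3 each; exact permutation test, p = 0.2), and that of miR-301b was 1.24 ± 0.0197 and 1.77 ± 1.59 (SD, n = 3 each; exact permutation test, p = 1). In each of the 3 the ranges of the genotypes overlapped under TMM. Where the livers were scaled on their top 100 miRNAs by abundance, those of miR-130b did not (exact permutation test, p = 0.1, the lowest possible here). The share of all miRNAs without overlap under that scaling is not given. Only 1 liver held miR-130b above the viral probe limit, so this is not read as a change. The livers had 82942 to 133331 mouse miRNA counts, and what size of difference this depth could show for these 3 members was not tested.

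A ratio of 2 miRNAs within a liver needs no scaling between libraries. No pair of members lay above the limit in all livers, so miR-130a was set against 10 other miRNAs, a choice made after the counts had been seen. They were 5 miRNAs with related seeds and 5 markers of liver cell types. Only the change of a ratio between genotypes is read, since probes differ in capture. The seed of miR-148a, miR-148b and miR-152, which are known to target the DNA methyltransferase *Dnmt1*, equals the first 7 bases of miR-130a. The first 6 bases of the seed of miR-19a and miR-19b, from the growth-promoting miR-17-92 cluster, equal the last 6 of the seed of miR-130a.
miR-148a: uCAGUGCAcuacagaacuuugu
miR-148b: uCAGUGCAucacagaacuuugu
miR-152: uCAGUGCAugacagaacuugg
miR-19a: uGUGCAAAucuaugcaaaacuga
miR-19b: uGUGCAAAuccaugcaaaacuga

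The count of miR-130a per count of miR-148a was 0.264, 0.247 and 0.262 in control livers and 0.76, 0.78 and 0.822 in tumour livers. The ratio was thus 3.06-fold higher in *Apcfl/fl* liver. Its pooled SD within genotypes was 0.056 on the log2 scale (3 mice each). Over the ratios of miR-130a to all 173 other tested miRNAs the median SD was 0.54. MiR-148a had 1324 to 3281 counts, while 101 of the 174 tested miRNAs reached a mean of 60. For the abundant miR-122 the SD of the ratio was 0.30 in control and 0.19 in tumour livers. For miR-126-3p it was 0.21 and 0.25. Counting error alone would give an SD of 0.056 for the log2 ratio to miR-148a, which equals the observed value at this rounding. Low counts can widen a ratio, but the part of count depth in the other spreads was not tested.
Against miR-148b the ratio moved the other way, from 13.8, 18.4 and 17.6 in control livers to 9.86, 9.64 and 6.92 in tumour livers. Against miR-152 it was 4.52, 5.96 and 6.55 in control and 10.2, 6.64 and 8.34 in tumour livers. Against miR-19b it was 5.15, 3.57 and 4.46 against 6.38, 10.1 and 9.8. The ratio to miR-19a overlapped between the genotypes (log2 difference 0.29; exact permutation test, p = 0.6), and the difference was 0.04 without *Apcfl/fl* liver 2 and 0.49 without *Apcfl/fl* liver 1. As for the related seeds themselves, edgeR's log2 fold change was -1.31 for miR-148a (adjusted p = 0.056), 1.26 for miR-148b (0.072), -0.71 for miR-19b (0.13), -0.20 for miR-152 (0.75) and 0.00 for miR-19a (0.99). The median of these 5 was -0.20, beside 0.01 for all tested miRNAs, and none passed the adjusted threshold, while miR-148a and miR-19b were lower and miR-148b higher at an unadjusted p under 0.05, beside 10.9% lower and 13.8% higher over all tested miRNAs.

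Against the cell type markers, the ratio of miR-130a to hepatocyte miR-122 was 0.041, 0.0282 and 0.029 in control and 0.15, 0.116 and 0.126 in tumour livers, 4.03-fold higher. To endothelial miR-126-3p it was 0.263, 0.276 and 0.343 in control and 0.366, 0.512 and 0.4 in tumour livers, 1.44-fold higher. To miR-223, a miRNA of myeloid cells, it was 13.2, 12.2 and 13.9 against 7.45, 8.46 and 4.22, a fold of 0.49. The ratios to mesenchymal miR-199a-3p (log2 difference 0.56; exact permutation test, p = 0.2) and to erythroid miR-451 (-0.48; exact permutation test, p = 0.9) overlapped. Of the markers themselves, edgeR's log2 fold change was -1.71 for miR-122, -0.23 for miR-126-3p, -0.18 for miR-199a-3p, 1.18 for miR-451 and 1.43 for miR-223. That of miR-130a was 0.31, so the ratios to miR-122 and miR-223 moved mostly with the marker.
Over the 10 ratios, 5 were higher and 2 lower in *Apcfl/fl* liver without overlap, each with an exact permutation p of 0.1, adjusted 0.14. With the mean of the viral probes subtracted, the ratio to miR-152 overlapped (exact permutation test, p = 0.2), and 4 were higher and 2 lower without overlap. Of the ratios of miR-130a to all 173 other tested miRNAs, 22.5% were higher and 9.25% lower without overlap.

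**Figure D4:**
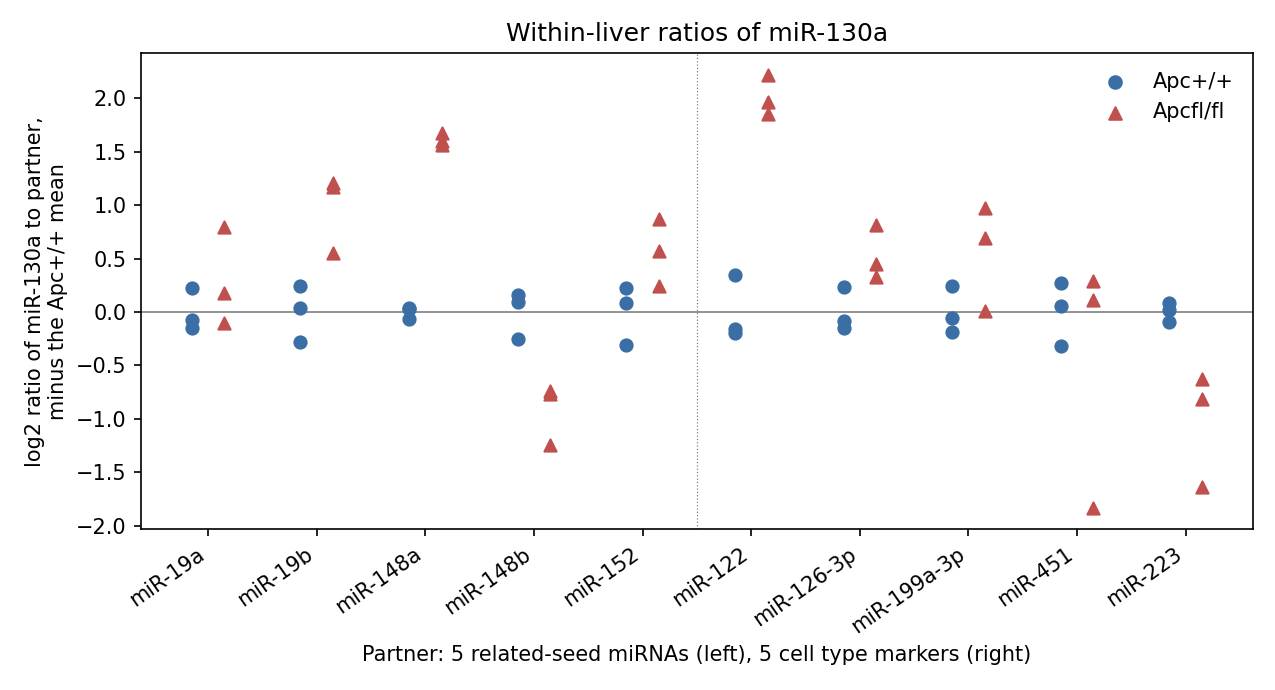
Log2 ratio of the miR-130a count to each of 10 partner counts in the same liver, minus the mean of the *Apc+/+* livers for that partner (circles *Apc+/+*, triangles *Apcfl/fl*, 1 point per liver). The ratios to miR-148a and miR-122 lie highest in *Apcfl/fl* liver, those to miR-148b and miR-223 lie below the controls, and the ratio to miR-451 is spread by *Apcfl/fl* liver 2.

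The levels of cell type markers are given beside that of miR-130a. In bulk liver, fewer cells of a type and less RNA per cell cannot be told apart. The summed normalized count of the 2 endothelial markers was 3585 to 3808 in control and 2764 to 3553 in tumour livers, with a median log2 fold change of -0.34. For the 5 mesenchymal markers, of which 4 were tested, it was 893.5 to 1317 against 322 to 724.9 (median -0.92). For the 4 hepatocyte markers it was 24679 to 39680 against 8180 to 13996 (median -0.92). For the 8 blood cell markers, of which 7 were tested, it was 1181 to 1643 against 1039 to 4949 (median 0.53), and the highest sum without *Apcfl/fl* liver 2 was 1836. The median over all tested miRNAs was 0.01. None of these markers passed the adjusted threshold in edgeR's test. At an unadjusted p under 0.05, 3 hepatocyte and 2 mesenchymal markers were lower and 2 blood cell markers higher in *Apcfl/fl* liver, and 0 endothelial markers passed it, beside 10.9% lower and 13.8% higher over all tested miRNAs. The 2 blood cell markers were miR-223 and miR-155, and miR-155 passed the count minimum only through tumour livers 2 and 3. Each defining marker (miR-122, miR-126-3p, miR-199a-3p, miR-451 and miR-223) lay above the limit in all 6 livers. Their part in the level of miR-130a was not tested.

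Of the tested miRNAs, miR-155 (r = 0.93), miR-222 (r = 0.89) and miR-1944 (r = 0.84) had the patterns most like that of miR-130a, by Pearson's r of normalized log2 values over the 6 livers, which share library scaling. These r only order the miRNAs, and the likeness is what chose them. MiR-155, an immune cell miRNA, was at the lowest value of 1 in 4 livers (the *Apc+/+* livers and *Apcfl/fl* liver 1), so that its r rests on tumour livers 2 and 3, with normalized counts of 82.6 and 38.1. It reached the count minimum only through those 2 livers. MiR-222 had 18.4 to 20.2 normalized counts in control livers and 18.9, 36 and 32.8 in tumour livers, so that its r also rests on tumour livers 2 and 3. It lay above the viral probe limit in 1 control and 2 tumour livers. MiR-1944 lay above that limit in all 6.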

How the data were processed

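The authors deposited estimated counts per NanoString probe for 6 livers, not scaled between samples, and RNA was processed by a core facility per the labels. In 584 of 584 probes the values above 1 shared a decimal part (within 0.005), and the lowest value was 1. A constant may thus have been subtracted from each probe and a floor of 1 set, steps not given in the sources used here. The text read here gives Student's t-test and the Wilcoxon-Mann-Whitney U test for group comparisons in general. It names no test for this profile, and further methods in its supplement were not read. Counts were rounded and tested with edgeR 4.0.16 in R 4.3.3 (TMM, quasi-likelihood, 174 mouse miRNAs, Benjamini-Hochberg adjustment, prior count 2). All 6 livers entered the fit, and viral probes stayed out of library sizes. The code was tested on simulated data. Normalized counts are scaled to the mean effective library size. Alternatives were DESeq2 1.42.0, limma 3.58.1 (pseudocount 1), other scalings, count minimums and limits, viral probe subtraction, a replicate block and each liver left out. Columns without a sample numbered 0. The members, lists and rules were chosen with earlier results of these data known. Named were the 4 members, miRNAs with the same or a related seed, markers, and the 3 miRNAs most correlated with miR-130a. Probe names were matched to 3p arms by name.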

Additional observations from a re-analysis of the deposited data

How the results depend on the processing

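The log2 fold change of miR-130a stayed above 0 in all 15 alternatives (0.17 to 0.74; 0.22 to 0.46 with 1 liver left out), with an adjusted p of 0.067 to 0.67 and an unadjusted p under 0.05 in 5. The replicate numbers did not pair the livers (correlations -0.06, -0.06 and 0.12), and with the replicate block the value was 0.29 (adjusted p = 0.54). Against the 0 miRNAs with an adjusted p under 0.05 (43 unadjusted), there were 7 with the top 100 size factor, 17 with the total count, 21 without miR-720 in it, 18 with the count minimum of 60, 19 with viral probe subtraction, 7 with the block, 29 with DESeq2 and 0 to 19 with 1 liver left out, the most without *Apcfl/fl* replicate 3. The unadjusted count was 83 with no filter and 25 to 46 with 1 liver left out, the fewest without *Apc+/+* replicate 2. MiR-130b passed the limit in 0 livers at the mean plus 3 SD and 0 at the highest viral probe, and miR-301a in 2 at the latter. The difference of mean normalized counts, 0.97 for miR-301a, was -0.67 with the top 100 size factor, 7.01 with the total count, 6.14 without miR-720 in it, 6.96 with no filter, 3.17 with viral probe subtraction, 2.29 with the count minimum of 60 and -3.52 to 5.06 with 1 liver left out, the lowest without *Apc+/+* replicate 1. For miR-130b, -7.42 kept its sign and was -2.09 with viral probe subtraction, -3.83 with the total count, -4.15 without miR-720 in it, -3.76 with no filter and -9.23 to -3.92 with 1 liver left out, the last without *Apcfl/fl* replicate 2. For miR-301b, 0.53 was 1.01 with the total count and lay between -0.37 and 1.0 with 1 liver left out. With viral probe subtraction it turned to -0.36 (no overlap, exact permutation p = 0.1). All 6 counts of miR-301b were then at the floor of 1, so only the scaling differed between livers. Of 70 alternative values of the ratios, 1 changed sign: the log2 difference against miR-451 was -0.48, and -0.86 to 0.20 with 1 liver left out, the highest without *Apcfl/fl* replicate 2. The difference against miR-199a-3p, 0.56, was 0.35 without *Apcfl/fl* replicate 1 and 0.83 without *Apcfl/fl* replicate 3. The causes were not tested. No pair of members lay above the limit in all 6 livers, so no ratio between members was compared.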
